A study of Mus musculus with 12 samples.

Results

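Liver transcriptomes of mice without food for 16 h (FA) were set against those of mice with free access to food (AL, ad libitum). The comparison took in all 66468 assembled loci of the deposited FA and AL table, and its members were the 8 livers of these groups out of 12 in the series. Both groups were wild-type C57BL/6 mice (C57BL/6N by the methods), 17 weeks old and male by the methods, on the same control diet (labelled NCD) with water. FA mice (4 livers) lost access to food for 16 h, whereas AL mice (4 livers) kept it. A group with food for 6 h after the fast (RF, 4 livers) enters at the end for genes that could be matched. Total RNA was depleted of ribosomal RNA and sequenced in paired, strand-specific libraries. The table gives 1 FPKM per locus and group (sequenced fragments, divided by transcript length and by library size), the authors' pooled value over 4 livers. No value of a single liver was analysed here, so no SD, test or p-value accompanies any difference, and the depth of the libraries is unknown. The sources used here state no hour of collection, so the fast and the time of day cannot be told apart.

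The liver carries the body through a fast. As insulin falls and glucagon and glucocorticoids rise, hepatocytes break down glycogen, make glucose from lactate, glycerol and amino acids, oxidize fatty acids and release ketone bodies, while the synthesis of lipids and much of the synthesis of secreted proteins is held back. Hepatocytes also produce most plasma proteins and most enzymes that clear drugs and hormones, so a feeding state can be read in functions well beyond fuel metabolism, and these were the main subject here.

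Protein-coding genes at 1 FPKM or more in either group and above 0 in both numbered 10317. Of these, 162 were at least 2-fold higher in FA than in AL liver (1.57%) and 297 were at least 2-fold lower (2.88%). These 2 shares serve below as the background for every gene group. The genes higher in FA lay in 154 loci and those lower in FA in 289, because a locus can name several genes. Scaling both groups to the same FPKM sum, which 1 locus of 14 bases dominated in FA, gave 1 gene higher and 10098 lower, whereas scaling on protein-coding loci gave 168 higher and 280 lower. The median log2 ratio of FA over AL was -0.04, and the middle 90% of genes lay between -0.74 and 0.58. Of all 10317 genes, 44.5% had the higher FPKM in FA. Wide ratios were more frequent among transcripts at 30 FPKM or more in their higher group, with no rise by level below that. The shares higher and lower in FA were 1.28% and 1.80% between 3 and 10 FPKM and 0.91% and 2.78% between 10 and 30. Between 30 and 100 FPKM they were 3.12% and 5.86%. Among genes with 100 FPKM or more in their higher group, 6.43% were at least 2-fold higher in FA and 6.67% at least 2-fold lower, against 1.30% and 2.99% of genes between 1 and 3 FPKM. Lists of sterol, fatty acid and clock genes held 33 of the 162 genes higher in FA and 48 of the 297 lower in FA. The genes described below are mainly the others.

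**Figure D1:**
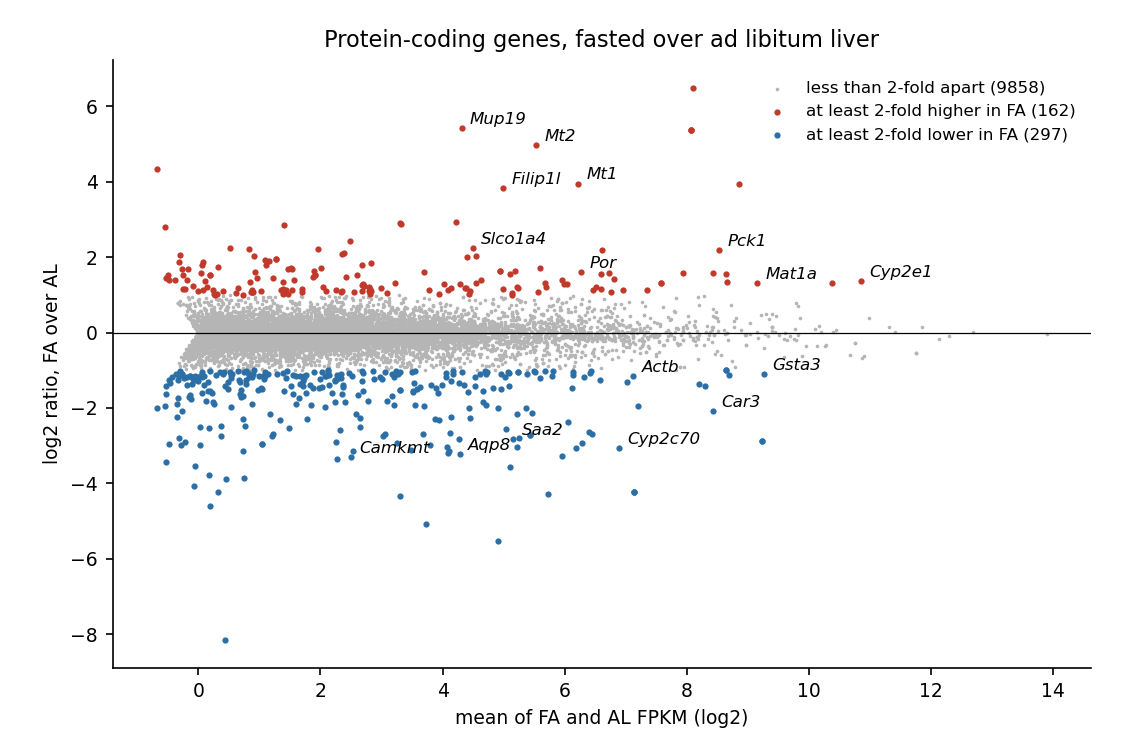
Log2 ratio of FPKM in FA over AL liver (vertical axis) against the mean FPKM of both groups (horizontal axis, log2), with 1 point per protein-coding gene at 1 FPKM or more in either group. Red points are the 162 genes at least 2-fold higher in FA, blue points the 297 at least 2-fold lower, and grey points the rest.

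Properties of the table bear on single genes. The loci were assembled from the reads, and 2301 of the 10317 genes (22.3%) had their highest FPKM in a locus numbered on the strand opposite to their annotation. The strand of a locus is not given and was inferred from the order of the locus numbers along each chromosome. Genes measured in such a locus are marked below as measured on the opposite strand. For 3544 genes measured on both strands, the log2 ratios differed by a median of 0.11, and 204 of 208 genes past 2-fold on either strand had the same sign on both. In all, 1094 genes shared their locus with another gene, so their FPKM cannot be divided between the names. In bulk liver, fewer cells of a type and less RNA per cell cannot be told apart.

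Among genes at 5 FPKM or more outside the sterol, lipid and clock lists, the highest ratio belonged to Mup19, a major urinary protein gene (chr4:61778324-61782269), with 38.8 FPKM in FA and 0.910 FPKM in AL liver. Copies in this family are almost alike and reads can be credited to the wrong one. All Mup genes together had 11931 FPKM in FA and 11390 FPKM in AL, a ratio of 1.05. The metallothionein genes Mt2 and Mt1 followed. Pck1 (chr2:173153048-173159273), which encodes the cytosolic phosphoenolpyruvate carboxykinase of gluconeogenesis, had 606 FPKM in FA and 132 FPKM in AL, a 4.58-fold higher level on an abundant transcript. Slco1a4, an organic anion transporter of the sinusoidal membrane, had 37.2 FPKM in FA and 7.87 FPKM in AL (4.72-fold higher). St3gal5, the synthase of the ganglioside GM3, had 37.6 FPKM in FA and 9.21 FPKM in AL, and Nr1i3, the constitutive androstane receptor CAR, had 73.8 FPKM in FA and 22.4 FPKM in AL. Ctcfl, a paralog of the chromatin factor CTCF known from testis, had 8.31 FPKM in FA and 1.95 FPKM in AL. Ctcfl (chr2:173093609-173119525) lies near Pck1, and whether reads from there entered its value was not tested. A locus naming Ankhd1 and Eif4ebp3 had 46.3 FPKM in FA and 14.9 FPKM in AL. Eif4ebp3 belongs to a family of translation repressors that bind eIF4E.

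The other entries among the 15 highest need their position read with their value. Filip1l had 59.4 FPKM in FA and 4.18 FPKM in AL on the opposite strand, in an interval where Cmss1 lies on the strand measured. A second opposite-strand locus of Filip1l had 1.44 FPKM in FA and 1.90 FPKM in AL, and on its own strand, under 1 FPKM in both groups, the log2 ratio was -0.000903. Gm10801 (32.9 FPKM in FA, 4.34 in AL) and Gm10800 (9.42 FPKM in FA, 1.75 in AL) were both measured at chr2:98662232-98667333, on opposite strands of 1 interval. RP23-234F23.1 had 8.49 FPKM in FA and 1.96 FPKM in AL on the opposite strand. Gm17430 had 9.90 FPKM in FA and 2.87 FPKM in AL, and Slc25a34, a mitochondrial carrier, had 6.17 FPKM in FA and 1.90 FPKM in AL on the opposite strand.

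Genes with the lowest ratios included genes of transport, steroid metabolism and plasma proteins. Aqp8, a water channel of the canalicular and mitochondrial membranes (chr7:123462291-123468004), had 3.76 FPKM in FA and 35.2 FPKM in AL, a 9.38-fold lower level. Cyp2c70, the mouse P450 that forms muricholic acids (chr19:40153353-40187333), had 25.2 FPKM in FA and 211 FPKM in AL (8.38-fold lower). Hsd3b5, a steroid dehydrogenase of male mouse liver, had 6.12 FPKM in FA and 28.9 FPKM in AL. Serpina7, thyroxine-binding globulin, had 3.12 FPKM in FA and 24.7 FPKM in AL on the opposite strand, with 0.929 FPKM in FA and 7.29 FPKM in AL on its own strand. Saa2, serum amyloid A2, had 8.85 FPKM in FA and 62.4 FPKM in AL on the opposite strand, and 3.96 FPKM in FA and 25.9 FPKM in AL on its own. Slpi, a leukocyte protease inhibitor, had 1.13 FPKM in FA and 8.47 FPKM in AL on the opposite strand. The methyltransferase gene Camkmt had 1.05 FPKM in FA and 10.3 FPKM in AL on the opposite strand, with 0.588 FPKM in FA and 1.02 FPKM in AL on its own. Dpy19l3 and Pstpip2 were 5.96-fold and 4.90-fold lower in FA.

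Several of the lowest entries lay beside a gene of another list that was lower in FA as well. Nim1k, a protein kinase gene, had 3.36 FPKM in FA and 30.6 FPKM in AL, and its interval also holds Hmgcs1 of sterol synthesis on the other strand, which had 11.8 FPKM in FA and 113 FPKM in AL. Rai1 had 2.10 FPKM in FA and 14.2 FPKM in AL, and its interval reaches over Srebf1 on the other strand, with 8.08 FPKM in FA and 66.1 FPKM in AL. Hcn3 (chr3:89146074-89160196) had 1.89 FPKM in FA and 10.7 FPKM in AL, and its annotated end overlaps that of Pklr (chr3:89136142-89146784), the liver pyruvate kinase, with 5.11 FPKM in FA and 25.5 FPKM in AL. A locus naming Smg6 and Tsr1 had 11.3 FPKM in FA and 74.6 FPKM in AL. Whether reads of the neighbour entered the values of Nim1k, Rai1 or Hcn3 was not tested.

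**Figure D2:**
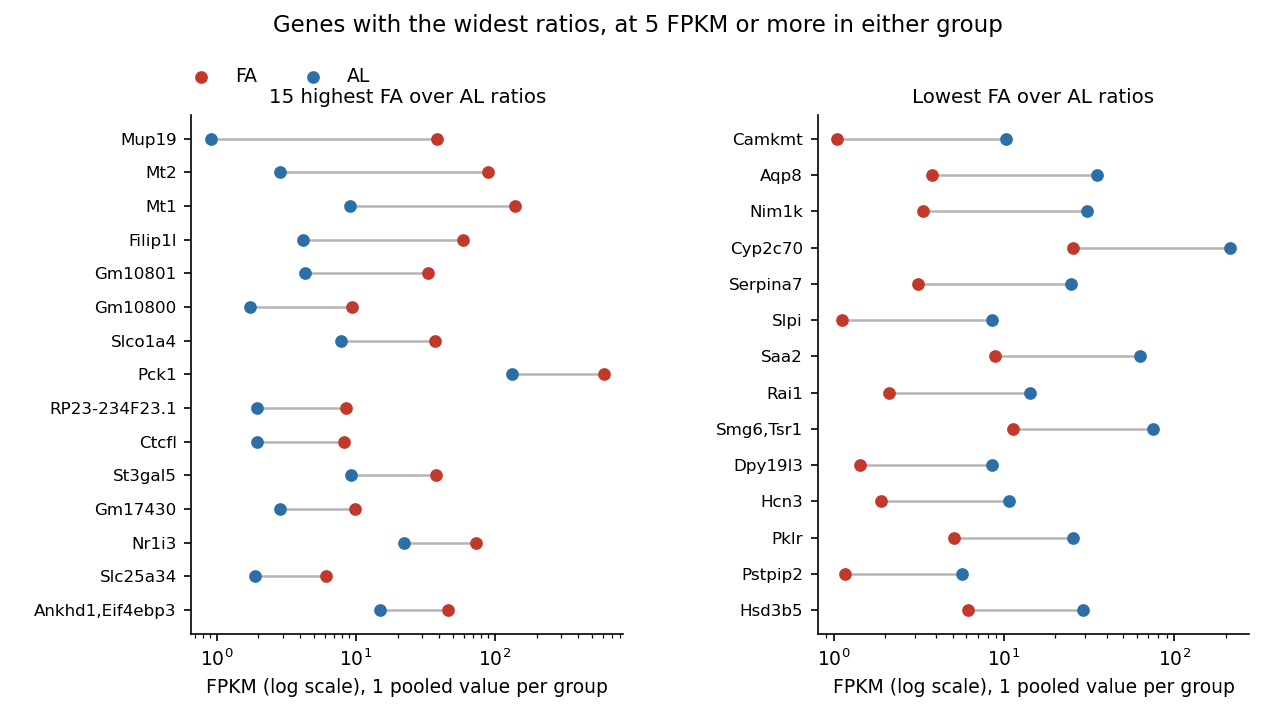
Pooled FPKM (horizontal axes, log scale) in FA (red) and AL liver (blue) of the 15 protein-coding genes with the highest FA over AL ratio (left) and of those with the lowest (right, with 1 of the 15 not shown), at 5 FPKM or more in either group and outside the sterol, lipid and clock lists. Mup19 tops the left panel with 38.8 FPKM in FA against 0.910 in AL, and Camkmt the right panel with 1.05 FPKM in FA against 10.3 in AL.

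The widest gains in absolute FPKM belonged to abundant transcripts, and included the urinary protein genes Mup7 (2295 FPKM in FA and 1744 in AL) and Mup20 (2652 FPKM in FA and 2397 in AL). Cyp2e1, a P450 that oxidizes ethanol and acetone (chr7:140763739-140774987), had 2654 FPKM in FA and 1031 FPKM in AL (2.57-fold higher). Mug1, a plasma protease inhibitor of the alpha-2-macroglobulin family, had 1897 FPKM in FA and 769 FPKM in AL (2.47-fold higher). Mat1a, the liver synthase of S-adenosylmethionine, had 806 FPKM in FA and 326 FPKM in AL (2.48-fold higher). The losses included Car3, carbonic anhydrase III, with 130 FPKM in FA and 556 FPKM in AL (4.26-fold lower), and Gsta3, a glutathione transferase, with 389 FPKM in FA and 834 FPKM in AL. Rgn, in a locus shared with Gm9085, encodes the calcium-binding protein regucalcin and had 257 FPKM in FA and 566 FPKM in AL. Ttr, the thyroxine and retinol carrier transthyretin, had 1504 FPKM in FA and 2324 FPKM in AL, and the locus of Trf (transferrin), shared with Gm20425 and Srprb, had 2790 FPKM in FA and 4074 FPKM in AL. These 2 plasma protein loci were under 2-fold apart.

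Metallothioneins bind zinc and copper and are made when free zinc, glucocorticoids or oxidants rise. Mt1 (chr8:94179082-94180327) had 140 FPKM in FA and 9.05 FPKM in AL, a 15.5-fold higher level, and Mt2 (chr8:94172664-94173568) had 89.4 FPKM in FA and 2.84 FPKM in AL, a 31.4-fold higher level. The other 2 metallothionein genes of the list, Mt3 and Mt4, were listed at 0 in both groups. Of 20 transporters and handling proteins for zinc, copper and manganese, 0 passed 2-fold in either direction, with a median log2 ratio of -0.04. Within that list, Mtf1, the zinc-sensing factor that drives metallothionein genes, had 1.28 FPKM in FA and 1.54 FPKM in AL, and Slc39a4, a zinc importer, had 6.70 FPKM in FA and 8.88 FPKM in AL.

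The promoters of Mt1 and Mt2 are shown because these genes had 2 of the widest ratios and are textbook targets of the metal response element. The element was searched as TGCNCNC on both strands, where N is any base, and each match stands in capitals (RefSeq, GRCm38.p6, forward strand, 250 bases before the annotated start and 50 from it on).

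Mt1, chr8:94178839-94179138: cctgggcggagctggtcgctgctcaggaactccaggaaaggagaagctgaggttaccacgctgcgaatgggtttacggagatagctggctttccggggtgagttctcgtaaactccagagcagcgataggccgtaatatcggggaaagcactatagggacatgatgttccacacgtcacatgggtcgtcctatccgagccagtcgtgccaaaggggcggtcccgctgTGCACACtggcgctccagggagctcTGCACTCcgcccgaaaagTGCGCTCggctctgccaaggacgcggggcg

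Mt2, chr8:94172368-94172667: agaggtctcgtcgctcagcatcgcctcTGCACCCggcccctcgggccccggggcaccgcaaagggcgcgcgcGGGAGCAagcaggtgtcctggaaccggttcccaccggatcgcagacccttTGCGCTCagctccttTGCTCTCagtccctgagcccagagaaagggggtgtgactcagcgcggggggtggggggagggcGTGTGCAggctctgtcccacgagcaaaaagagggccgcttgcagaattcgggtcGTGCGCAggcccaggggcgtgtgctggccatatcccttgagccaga

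The Mt1 window held 3 matches and the Mt2 window 6. In all promoters of the table, 53.6% of 27025 genes had at least 1 match, 8.04% had at least 3 and 0.263% had at least 6. The stricter core TGCGCNC, which lies within some of these matches, occurred in both windows and in 17.0% of genes. Promoters of 9 of the 15 highest genes were in the table. TGCNCNC was found in 4 of these 9 genes (44.4%), Mt1 and Mt2 among them, against 53.6% of all genes. The cAMP response element TGACGTCA was found in 0 of these 9 genes against 2.03% of all genes, and the glucocorticoid element searched as AGAACA, any 3 bases and TGTTCT was found in 0 of 9 against 0.0111% of all genes. Sequences this rare are seldom met in 9 genes, and variant forms were not searched, so no conclusion is drawn from these counts.

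Of 24 measured genes known to respond to glucocorticoids, 7 were at least 2-fold higher and 0 lower, with a median log2 ratio of 0.57 against -0.04 over all protein-coding genes. The list was chosen with earlier results of these data known, and Mt1 and Mt2 are 2 of its 7. Fkbp5, a co-chaperone of the glucocorticoid receptor, had 19.4 FPKM in FA and 6.41 FPKM in AL. Usp2, a deubiquitinase, had 4.41 FPKM in FA and 1.34 FPKM in AL, and Per1, also a clock gene, had 3.03 FPKM in FA and 0.744 FPKM in AL. Angptl4, an inhibitor of lipoprotein lipase, had 17.5 FPKM in FA and 2.38 FPKM in AL on the opposite strand. Tdo2, the tryptophan dioxygenase of the list, had 736 FPKM in FA and 522 FPKM in AL.

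Other transcription factor lists had few members past 2-fold. Of 12 Kruppel-like and Sp factors, 11 had the higher FPKM in FA and 0 passed 2-fold, with a median log2 ratio of 0.40. Klf9, a glucocorticoid-responsive member, had 12.6 FPKM in FA and 7.33 FPKM in AL on the opposite strand, and Klf15, a regulator of amino acid use, had 5.96 FPKM in FA and 4.05 FPKM in AL. Among 38 nuclear receptors and coregulators of the list, which leaves out Nr1i3 (3.29-fold higher, above), 0 passed 2-fold, and Ppargc1a, the coactivator PGC-1 alpha, had 3.18 FPKM in FA and 1.96 FPKM in AL on the opposite strand. Among 14 immediate early genes at 1 FPKM or more, Junb was higher in FA (13.3 FPKM, against 5.37 in AL) and Egr1 lower (1.25 FPKM, against 2.95 in AL), both on the opposite strand. Of 21 cAMP-related factors and targets of the list, which leaves out Pck1 (4.58-fold higher, above), 0 passed 2-fold, and Crem, a repressor and activator of cAMP-driven genes, had 4.69 FPKM in FA and 7.01 FPKM in AL.

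Genes of the insulin and growth hormone axes had members past 2-fold in both directions. Of 23 insulin and FOXO signalling genes, 2 were at least 2-fold higher in FA and 3 lower. Trib3, a pseudokinase that binds AKT, had 5.61 FPKM in FA and 1.81 FPKM in AL, and Igfbp1, a binding protein of insulin-like growth factors, had 9.70 FPKM in FA and 4.19 FPKM in AL, both on the opposite strand. The 3 lower were Grb10, an adaptor of the insulin receptor (0.662 FPKM in FA and 1.46 in AL, opposite strand), Pik3r3 (0.455 FPKM in FA and 1.04 in AL, opposite strand) and Ppp1r3b. Of 21 genes of the growth hormone and IGF axis, 2 were higher in FA and 3 lower, among them Igfbp2 with 90.5 FPKM in FA and 34.2 FPKM in AL, Igfbp5 with 1.63 FPKM in FA and 3.799 FPKM in AL on the opposite strand, and Onecut1, a liver transcription factor, with 0.802 FPKM in FA and 2.00 FPKM in AL. Of 40 hormone and cytokine receptors, 2 were at least 2-fold higher in FA and 3 lower. Il6ra had 9.001 FPKM in FA and 3.78 FPKM in AL on the opposite strand, Lifr had 34.3 FPKM in FA and 76.8 FPKM in AL, Adipor2 had 26.6 FPKM in FA and 56.8 FPKM in AL, and Adra1b had 1.92 FPKM in FA and 4.63 FPKM in AL.

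Of 10 gluconeogenic genes, Pck1 alone passed 2-fold, and the median log2 ratio was 0.34. It was 0.13 with a minimum of 0.1 FPKM and 0.01 when all loci of a gene were summed. Slc37a4, the glucose-6-phosphate transporter of the endoplasmic reticulum (ER), had 29.98 FPKM in FA and 16.4 FPKM in AL, and Pcx, the pyruvate carboxylase, had 73.5 FPKM in FA and 48.2 FPKM in AL. G6pc, the glucose-6-phosphatase, had 30.5 FPKM in FA and 28.1 FPKM in AL on the opposite strand, and Fbp1, fructose bisphosphatase, had 255 FPKM in FA and 273 FPKM in AL. Of 26 genes of glycolysis and fructose and galactose use, 3 were at least 2-fold higher in FA and 4 lower. The lower ones included Pklr and Tkfc (triokinase, 17.4 FPKM in FA and 35.7 in AL). The higher ones were the fructose transporter gene Slc2a5 (3.41 FPKM in FA and 1.26 in AL) and the arrestin family genes Txnip (7.94 FPKM in FA and 3.77 in AL) and Arrdc4 (2.50 FPKM in FA and 1.19 in AL, opposite strand).

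Genes of the pentose phosphate list, which supplies NADPH for synthesis, were lower in FA in 7 of 9. Of the 9 measured, 4 were at least 2-fold lower and 0 higher, and the median log2 ratio of -0.89 was the lowest of the 66 functional lists. Me1, malic enzyme, is counted in this list as another source of NADPH and is not an enzyme of the pathway itself. Me1 had 7.55 FPKM in FA and 36.2 FPKM in AL, and Pgd, 6-phosphogluconate dehydrogenase, had 1.51 FPKM in FA and 5.71 FPKM in AL. Tkt, transketolase, had 10.2 FPKM in FA and 22.9 FPKM in AL, and Taldo1, transaldolase, had 21.1 FPKM in FA and 39.1 FPKM in AL. H6pd, which acts inside the ER, had 17.8 FPKM in FA and 15.1 FPKM in AL on the opposite strand. Of 16 glycogen genes, 0 were at least 2-fold higher in FA and 2 lower. Ppp1r3b, the glycogen-targeting phosphatase subunit, had 0.732 FPKM in FA and 2.07 FPKM in AL, Pygl, the liver phosphorylase, had 46.0 FPKM in FA and 95.3 FPKM in AL, and Gys2, the liver glycogen synthase, had 37.2 FPKM in FA and 22.8 FPKM in AL.

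Amino acid enzymes lay close to the background as lists, with wide ratios in a few members. Of 53 catabolic genes, 33 had the higher FPKM in FA, 0 were at least 2-fold higher and 2 at least 2-fold lower. The lower ones were Csad of taurine synthesis (36.8 FPKM in FA and 103 in AL) and Qdpr of tetrahydrobiopterin recycling (55.2 FPKM in FA and 116 in AL). Hpd of tyrosine breakdown had 1114 FPKM in FA and 689 FPKM in AL, and Gpt2, the mitochondrial alanine aminotransferase, had 137 FPKM in FA and 87.0 FPKM in AL. Of 11 urea cycle and ammonia genes 0 passed 2-fold: Asl, argininosuccinate lyase, had 412 FPKM in FA and 209 FPKM in AL, whereas Cps1 had 901 FPKM in FA and 851 FPKM in AL and Ass1 had 1106 FPKM in FA and 1379 FPKM in AL. In the methionine cycle, Mat1a was joined by Ahcy, which hydrolyses S-adenosylhomocysteine (295 FPKM in FA and 157 in AL), and by Bhmt, which remethylates homocysteine (1112 FPKM in FA and 648 in AL). Gnmt, the glycine methyltransferase, had 727 FPKM in FA and 816 FPKM in AL.

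Phgdh, the first enzyme of serine synthesis, had 144 FPKM in FA and 49.2 FPKM in AL in a locus on the opposite strand. Asns, asparagine synthetase, had 4.76 FPKM in FA and 11.3 FPKM in AL. Of 23 cytosolic aminoacyl-tRNA synthetases, 5 had the higher FPKM in FA and 2 were at least 2-fold lower, Tars with 14.2 FPKM in FA and 32.0 FPKM in AL and Cars with 3.21 FPKM in FA and 6.89 FPKM in AL. Atf4, the transcription factor that drives Asns and several synthetases, had 5.41 FPKM in FA and 7.81 FPKM in AL. Of 22 plasma membrane amino acid transporters, 0 were at least 2-fold higher in FA and 2 lower. Slc7a2, a cationic amino acid carrier, had 101 FPKM in FA and 55.0 FPKM in AL, and Slc38a4, the most abundant of the list, had 505 FPKM in FA and 389 FPKM in AL.

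Genes for the entry of proteins into the ER, their folding and their glycosylation were lower in FA in most cases, by less than 2-fold for all but 4. Of 23 genes of translocation into the ER, 0 had the higher FPKM in FA, 1 was at least 2-fold lower (Sec61b, 16.7 FPKM in FA and 35.8 in AL), and the median log2 ratio was -0.40. Tram1, which helps chains enter the membrane, had 33.4 FPKM in FA and 59.4 FPKM in AL, and Sec61a1, the channel subunit, had 20.6 FPKM in FA and 32.6 FPKM in AL. Of 22 ER chaperones and disulfide isomerases, 2 had the higher FPKM in FA and 20 the lower one, with 2 past 2-fold and a median log2 ratio of -0.51. Sdf2l1, an ER stress-inducible cochaperone, had 12.98 FPKM in FA and 37.7 FPKM in AL on the opposite strand, and Manf, in a locus shared with Rbm15b, had 24.5 FPKM in FA and 50.4 FPKM in AL. Hspa5, the chaperone BiP, had 83.0 FPKM in FA and 135 FPKM in AL. Of 33 N-glycosylation genes, 6 had the higher FPKM in FA and 1 was at least 2-fold lower (Gmppb, 3.02 FPKM in FA and 6.61 in AL), with a median of -0.36. Rpn1, a subunit of the oligosaccharyltransferase, had 20.2 FPKM in FA and 36.8 FPKM in AL.

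Of 34 genes of vesicle coats and cargo receptors, 8 had the higher FPKM in FA, and Sec23b of the COPII coat, with 6.22 FPKM in FA and 12.6 FPKM in AL, was the 1 past 2-fold. Of 23 genes of the unfolded protein response and of ER-associated degradation, 3 had the higher FPKM in FA and 0 passed 2-fold. Herpud1 (129 FPKM in FA and 89.6 in AL) and Creb3l3, a membrane-bound liver transcription factor (43.8 FPKM in FA and 29.7 in AL), were among the 3, whereas Edem1 had 24.4 FPKM in FA and 38.9 FPKM in AL.

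Promoters of Hspa5 and Pdia6, a disulfide isomerase with 27.9 FPKM in FA and 55.6 FPKM in AL, are shown as examples of ER chaperone genes that hold the ER stress response element. It was searched on both strands as CCAAT, any 9 bases and CCACG, and the match stands in capitals (RefSeq, GRCm38.p6, forward strand, the same window as above).

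Hspa5, chr2:34771840-34772139: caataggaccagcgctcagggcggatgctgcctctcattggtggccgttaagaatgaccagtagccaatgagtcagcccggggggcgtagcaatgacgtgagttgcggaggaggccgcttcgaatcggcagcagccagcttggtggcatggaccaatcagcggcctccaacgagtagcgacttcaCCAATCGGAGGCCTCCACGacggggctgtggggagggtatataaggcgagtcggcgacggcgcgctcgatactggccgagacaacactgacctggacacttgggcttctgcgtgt

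Pdia6, chr12:17266339-17266638: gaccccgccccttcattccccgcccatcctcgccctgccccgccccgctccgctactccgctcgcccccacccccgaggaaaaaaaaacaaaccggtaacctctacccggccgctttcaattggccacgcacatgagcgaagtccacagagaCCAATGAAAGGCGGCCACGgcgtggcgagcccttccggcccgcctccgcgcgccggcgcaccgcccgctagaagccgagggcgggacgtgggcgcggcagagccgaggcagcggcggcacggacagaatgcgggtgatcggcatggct

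Of 22 ER chaperone genes, 17 had a promoter in the table, and 6 of these 17 (35.3%) held the element against 37 of 27025 genes (0.137%) in all. The 6 were Calr, Canx, Creld2, Hsp90b1, Hspa5 and Pdia6. All 6 had the lower FPKM in FA, as did 20 of the 22 genes of the whole list, and whether the element goes with the lower level was not tested. The log2 ratios of the 6 were -0.61 for Calr, -0.50 for Canx, -0.51 for Creld2, -0.28 for Hsp90b1, -0.70 for Hspa5 and -0.99 for Pdia6. Sdf2l1, the chaperone gene with the lowest ratio, had no match in its window.

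Of 77 cytosolic ribosomal protein genes, 0 passed 2-fold and the median log2 ratio was -0.10, with 397 FPKM in FA and 292 FPKM in AL for Rps27 and 43.4 FPKM in FA and 64.0 FPKM in AL for Rpl12 at the 2 ends of the range. Of 47 initiation and elongation factors the 1 past 2-fold was the shared Eif4ebp3 locus, and Eef1a1, the most abundant, had 802 FPKM in FA and 849 FPKM in AL. Of 30 ribosome biogenesis genes 0 passed 2-fold, and Npm1, nucleophosmin, had 68.3 FPKM in FA and 45.3 FPKM in AL. Of 24 genes of mTORC1 and amino acid sensing, Sesn2, a leucine sensor, was the 1 past 2-fold, with 1.27 FPKM in FA and 0.482 FPKM in AL on the opposite strand.

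Of 40 proteasome subunits and of 41 lysosomal genes, 0 passed 2-fold. Of 38 autophagy genes, 2 were at least 2-fold higher in FA and 0 lower. These were Bnip3, a receptor for mitophagy, with 128 FPKM in FA and 55.4 FPKM in AL, and Fam134b, a receptor for autophagy of the ER, with 9.49 FPKM in FA and 4.39 FPKM in AL. Gabarapl1, which coats autophagosomes, had 100 FPKM in FA and 64.1 FPKM in AL, and Ctsl, cathepsin L, had 190 FPKM in FA and 146 FPKM in AL. Among 31 heat shock and cytosolic chaperone genes, Fkbp5 passed 2-fold, and Hspa8, the constitutive HSC70, had 367 FPKM in FA and 222 FPKM in AL.

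**Figure D3:**
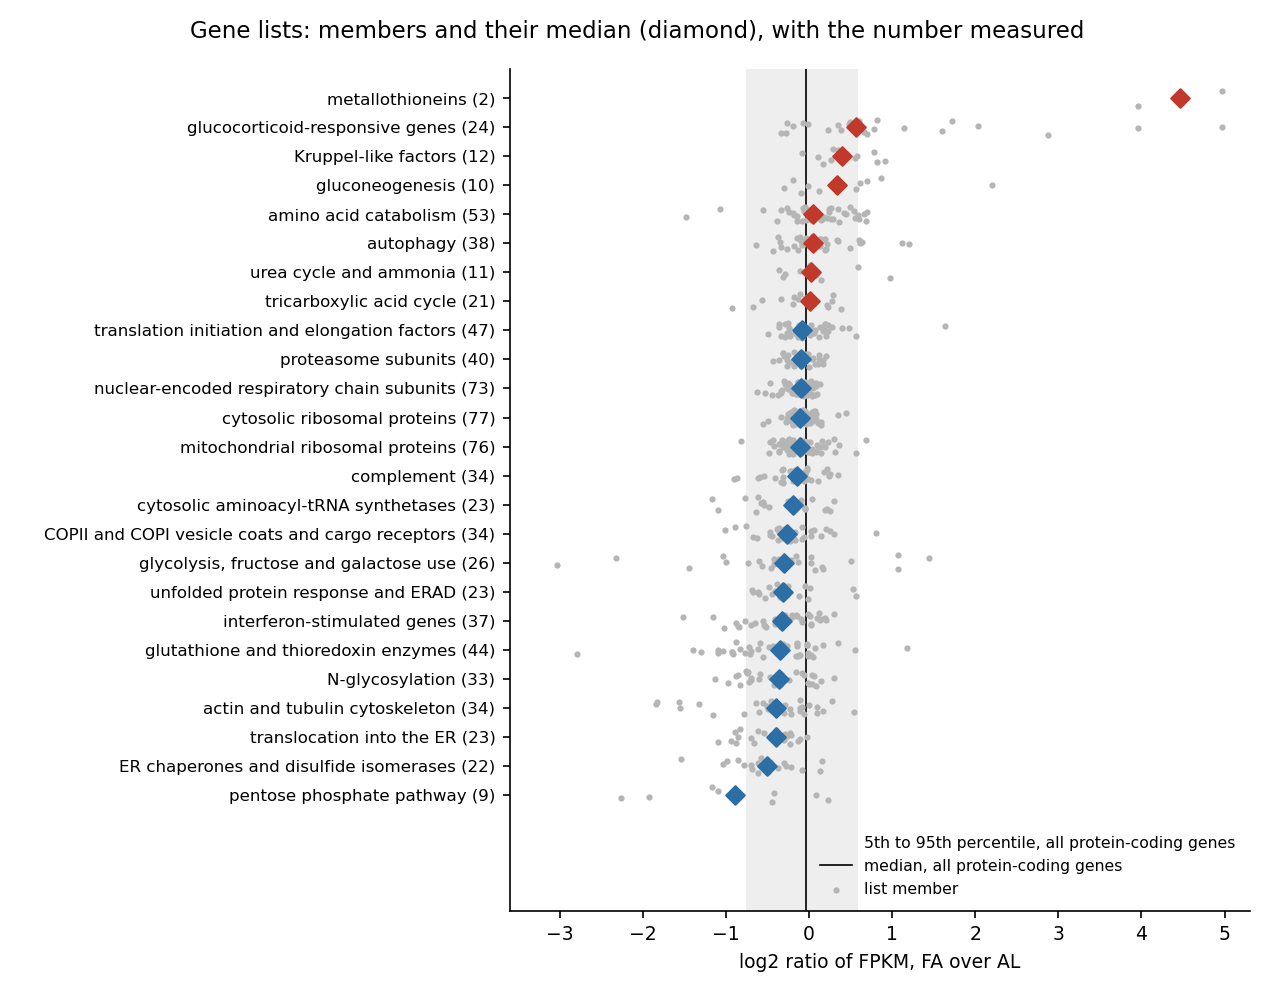
Log2 ratio of FPKM in FA over AL liver (horizontal axis) for 25 gene lists, ordered by median. Grey points are members at 1 FPKM or more in either group, diamonds the list medians (red above, blue below the median of all protein-coding genes), the line marks that median (-0.04) and the shaded band the middle 90% of all genes (-0.74 to 0.58). Medians of the lists reach down to -0.89 for the pentose phosphate pathway list, which also holds Me1, and -0.51 for ER chaperones.

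Of 73 nuclear-encoded respiratory chain subunits, 21 tricarboxylic acid cycle genes and 76 mitochondrial ribosomal proteins, 0 passed 2-fold, with medians of -0.09, 0.02 and -0.11. Cs, citrate synthase, had 11.0 FPKM in FA and 20.95 FPKM in AL. Of 29 carriers of the SLC25 family, 3 were at least 2-fold higher in FA and 1 lower. Slc25a29, a carrier of basic amino acids, had 223 FPKM in FA and 102 FPKM in AL, and Slc25a47, a liver carrier, had 47.3 FPKM in FA and 22.9 FPKM in AL. Slc25a1, the citrate exporter, had 48.1 FPKM in FA and 93.2 FPKM in AL. The third carrier higher in FA was Slc25a34, and the lower one was Slc25a4, an ATP and ADP exchanger with 1.88 FPKM in FA and 4.18 FPKM in AL, both on the opposite strand.

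Drug- and hormone-clearing enzymes held wide ratios in both directions within single families. Of 30 Cyp2 genes, 4 were at least 2-fold higher in FA and 7 lower. Beside Cyp2e1, Cyp2d9 had 420 FPKM in FA and 271 FPKM in AL. Cyp2c29, one of the abundant Cyp2c genes, had 164 FPKM in FA and 421 FPKM in AL, Cyp2c40 had 0.633 FPKM in FA and 4.05 FPKM in AL, and Cyp2c69 had 0.152 FPKM in FA and 1.77 FPKM in AL. Cyp2c39, by contrast, had 3.38 FPKM in FA and 0.886 FPKM in AL on the opposite strand. Cyp2c genes resemble each other closely, and their sum was 817 FPKM in FA and 1208 FPKM in AL. Of 20 genes of other P450 families and their partners, 7 were at least 2-fold higher in FA and 4 lower. The 4 measured loci of the Cyp3a family were all at least 2-fold higher, and the family sum was 709 FPKM in FA and 265 FPKM in AL. Cyp3a25 had 367 FPKM in FA and 124 FPKM in AL. Por, the reductase that passes electrons to microsomal P450s, had 116 FPKM in FA and 38.1 FPKM in AL, and Nr1i3, a regulator of several of these genes, was 3.29-fold higher. Cyp26a1, which degrades retinoic acid, had 1.44 FPKM in FA and 4.84 FPKM in AL, and Cyb5b, cytochrome b5 of the outer mitochondrial membrane, had 11.2 FPKM in FA and 39.7 FPKM in AL on the opposite strand.

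Of 44 genes of the glutathione and thioredoxin list, 7 had the higher FPKM in FA, 1 was at least 2-fold higher and 6 at least 2-fold lower, with a median log2 ratio of -0.35. The 6 loci of the Gstm family summed to 204 FPKM in FA and 403 FPKM in AL, and 4 of them were at least 2-fold lower. Gstm6 had 11.2 FPKM in FA and 29.7 FPKM in AL, Gstm2 had 10.2 FPKM in FA and 25.01 FPKM in AL, and Gsta1 had 0.204 FPKM in FA and 1.41 FPKM in AL. Gstt2, of the theta class, had 28.9 FPKM in FA and 12.8 FPKM in AL. The 2 most abundant members, Mgst1 (980 FPKM in FA and 1251 in AL) and Gstp1 (748 FPKM in FA and 1142 in AL), were lower in FA by less than 2-fold. Among 25 glucuronosyl- and sulfotransferases, Sult1d1 passed 2-fold with 89.5 FPKM in FA and 36.7 FPKM in AL, and Ugt2b1 had 152 FPKM in FA and 301 FPKM in AL on the opposite strand. Of 19 carboxylesterases and flavin monooxygenases, Fmo2 was higher in FA (4.44 FPKM, against 1.38 in AL) and Ces2c lower (3.74 FPKM, against 13.3 in AL).

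Of 35 ABC and organic ion transporters, 4 were at least 2-fold higher in FA and 4 lower. Abcb4, which flips phosphatidylcholine into bile, had 72.2 FPKM in FA and 31.2 FPKM in AL, whereas Abcb11, the bile salt export pump, had 56.6 FPKM in FA and 115 FPKM in AL. Slco1a1, a neighbour of Slco1a4 in the same gene family, had 49.7 FPKM in FA and 92.4 FPKM in AL. The organic anion transporter Slc22a30 had 14.9 FPKM in FA and 41.7 FPKM in AL, and Slc22a28 had 0.596 FPKM in FA and 4.004 FPKM in AL. Of 14 genes of bile acid synthesis and conjugation, Slc27a2 passed 2-fold, with 515 FPKM in FA and 172 FPKM in AL, and Cyp7a1, the rate-limiting enzyme of the classic pathway, had 40.05 FPKM in FA and 31.5 FPKM in AL on the opposite strand.

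**Figure D4:**
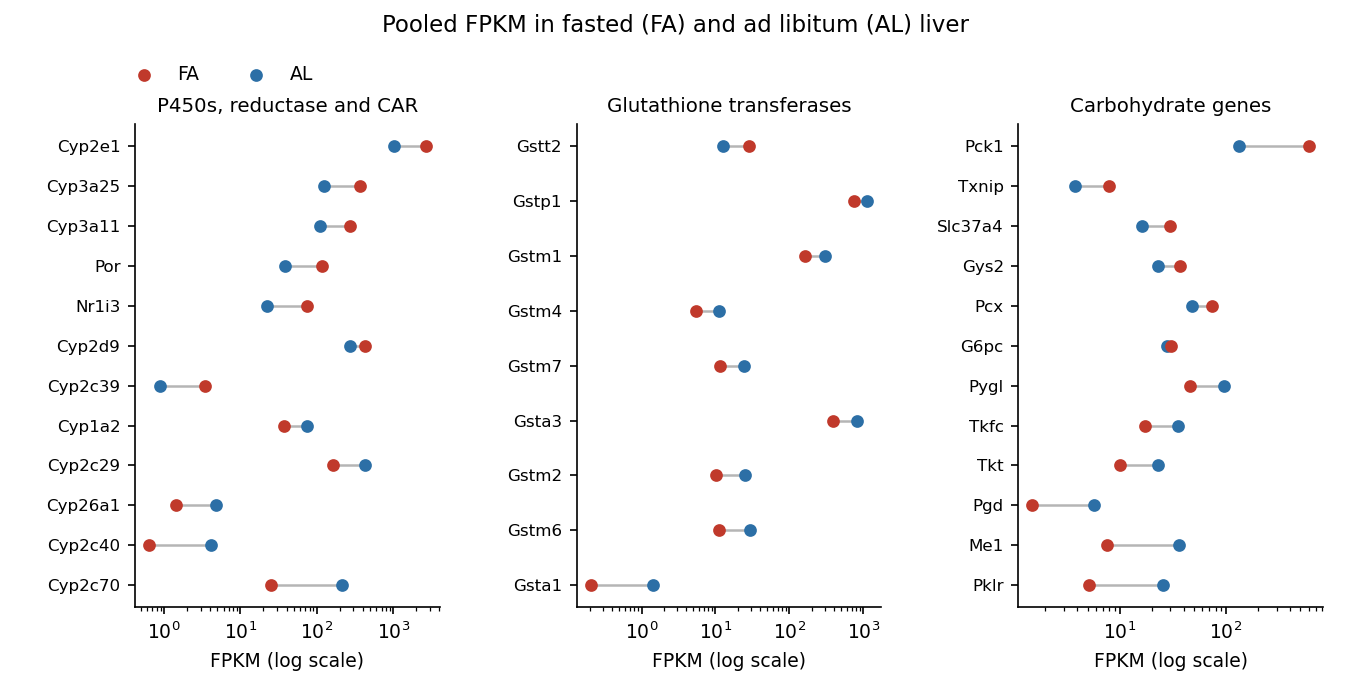
Pooled FPKM (horizontal axes, log scale) in FA (red) and AL liver (blue) for P450 genes, their reductase Por and the receptor gene Nr1i3 (left), glutathione transferase genes (middle) and carbohydrate genes (right). Cyp2e1 had 2654 FPKM in FA against 1031 in AL, Gsta3 had 389 FPKM in FA against 834 in AL, and Pklr had 5.11 FPKM in FA against 25.5 in AL.

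Of 27 acute phase genes, 4 were at least 2-fold higher in FA and 5 lower. Saa1 had 13.6 FPKM in FA and 60.6 FPKM in AL, Orm2 had 7.74 FPKM in FA and 20.3 FPKM in AL, and the locus shared by Orm1 and Orm3 had 266 FPKM in FA and 533 FPKM in AL. Lbp, the lipopolysaccharide-binding protein, had 35.9 FPKM in FA and 13.8 FPKM in AL. Lcn2, lipocalin 2, had 9.64 FPKM in FA and 4.37 FPKM in AL, and Serpina3n had 47.2 FPKM in FA and 23.5 FPKM in AL, both on the opposite strand. Of 34 complement genes, 7 had the higher FPKM in FA and 0 passed 2-fold, with C6 at 45.3 FPKM in FA and 82.7 FPKM in AL and C3 at 1185 FPKM in FA and 1169 FPKM in AL. Of 31 coagulation and fibrinolysis genes 0 passed 2-fold.

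Among secreted regulators, Igfbp2 was the most abundant of 2 hepatokine genes at least 2-fold higher in FA, and 3 were lower. Fst, the activin antagonist follistatin, had 0.594 FPKM in FA and 1.36 FPKM in AL on the opposite strand, and Rbp4, the retinol carrier, had 526 FPKM in FA and 318 FPKM in AL. Within the serpin list, 2 of 23 genes were at least 2-fold higher in FA and 4 lower. Serpina12, the adipokine vaspin, had 5.31 FPKM in FA and 20.6 FPKM in AL on the opposite strand. Serpina1b and Serpina1d, copies of the alpha-1-antitrypsin gene, were listed at 0 in AL and at 169 and 135 FPKM in FA. The near-identical Serpina1e had 1446 FPKM in FA and 2291 FPKM in AL, and the 6 Serpina1 loci together had 2713 FPKM in FA and 3252 FPKM in AL. Zeros in 1 group beside high levels of a copy are not read as presence or absence of the transcript. In all, 4 protein-coding genes were listed at 0 in AL alone, the other 2 being Igf2bp2 (8.44 FPKM in FA, opposite strand) and Gm10964 (2.41 FPKM in FA), and 1 was listed at 0 in FA alone, Scn7a (2.84 FPKM in AL, opposite strand).

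Iron genes were mostly lower in FA. Of 31 genes of heme synthesis and iron handling, 6 had the higher FPKM in FA, 0 were at least 2-fold higher and 1 at least 2-fold lower, with a median log2 ratio of -0.26. Tfrc, the transferrin receptor, had 4.796 FPKM in FA and 9.68 FPKM in AL, and Ftl1, ferritin light chain, had 605 FPKM in FA and 942 FPKM in AL. Alas1, the rate-limiting enzyme of heme synthesis in liver, had 108 FPKM in FA and 60.5 FPKM in AL.

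Cytoskeletal genes held 6 members at least 2-fold lower in FA of 34 measured, 0 higher, and a median log2 ratio of -0.40. Actb, beta-actin, had 86.4 FPKM in FA and 192 FPKM in AL. The tubulin genes Tubb2a (3.003 FPKM in FA and 10.7 in AL), Tuba1c (2.30 FPKM in FA and 8.24 in AL) and Tubb4b (5.81 FPKM in FA and 17.1 in AL) had the widest ratios among those at 5 FPKM or more in AL. Growth-related lists were sparse. Of 11 proliferation genes at 1 FPKM or more 0 passed 2-fold, and of 25 cyclins and growth arrest genes 2 were at least 2-fold higher, G0s2 with 51.7 FPKM in FA and 22.5 FPKM in AL and Cdkn2c with 3.70 FPKM in FA and 1.83 FPKM in AL, both on the opposite strand.

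Interferon-stimulated genes were lower in FA in 27 of 37, with 3 past 2-fold and a median log2 ratio of -0.32. Bst2, the antiviral tether tetherin, had 17.1 FPKM in FA and 34.9 FPKM in AL, Oasl1 had 2.6 FPKM in FA and 5.80 FPKM in AL, and Oas3 had 0.840 FPKM in FA and 2.41 FPKM in AL, with Oasl1 and Oas3 on the opposite strand. Of 18 antigen presentation genes 15 were lower in FA and 0 passed 2-fold, H2-Q10, a liver-secreted class I molecule, having 173 FPKM in FA and 326 FPKM in AL.

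Most markers of cells other than hepatocytes had the lower FPKM in FA, and their part in these gene groups was not tested. Of 12 Kupffer cell and macrophage markers at 1 FPKM or more, 11 were lower in FA, and the list summed to 48.6 FPKM in FA and 59.6 FPKM in AL, with Marco and Timd4 under 1 FPKM in both groups. Of 13 sinusoidal endothelial markers 10 were lower in FA, with a sum of 60.8 FPKM in FA and 69.0 FPKM in AL, and all 13 were at 1 FPKM or more. All 5 measured erythroid markers were lower in FA, with a sum of 813 FPKM in FA and 1112 FPKM in AL. Of 11 stellate and fibroblast markers 7 were lower in FA, with 2 past 2-fold, Col3a1 with 3.59 FPKM in FA and 7.91 FPKM in AL and Acta2 with 0.201 FPKM in FA and 1.51 FPKM in AL on the opposite strand. All 4 measured cholangiocyte markers were lower in FA, with a sum of 6.67 FPKM in FA and 8.51 FPKM in AL, and Krt19 was past 2-fold (0.273 FPKM in FA and 1.29 in AL, opposite strand), while Epcam and Krt7 were under 1 FPKM. Of 12 lymphocyte markers, 2 were at 1 FPKM or more, both on the opposite strand and close to level. These were Klrb1c (203 FPKM in FA and 203 in AL) and Ptprc (2.03 FPKM in FA and 2.09 in AL), while Cd3e and Cd4 were under 1 FPKM in both groups. The Klrb1c value was far above every other marker of this list, and whether it came from lymphocyte RNA was not tested. Both measured neutrophil markers were lower in FA on the opposite strand, S100a8 with 0.757 FPKM in FA and 2.47 FPKM in AL and S100a9 with 2.24 FPKM in FA and 2.61 FPKM in AL, while Cxcr2 and Ly6g were listed at 0. The 1 measured adipocyte marker, Fabp4, had 1.66 FPKM in FA and 2.53 FPKM in AL, and Lep was listed at 0. The 1 measured pancreatic acinar marker, Cela1, had 29.6 FPKM in FA and 60.4 FPKM in AL on the opposite strand, and Cpa1 and Prss2 were listed at 0.

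Of 14 hepatocyte markers, 12 were at 1 FPKM or more in either group and above 0 in both. The list summed to 12536 FPKM in FA and 12865 FPKM in AL. Alb was listed at 0 in both groups, a value set beside 1345 FPKM in FA and 1328 FPKM in AL for Apoa1, and Serpina1b was listed at 0 in AL. A listed 0 in both groups, here or for other genes above, is not read as absence of the transcript. Pericentral markers split, with 8 of 13 measured higher in FA and 5 lower, of which 1 was at least 2-fold higher and 3 at least 2-fold lower. Cyp2e1 was among the higher ones, and Cyp1a2 (36.8 FPKM in FA and 75.1 in AL) and Rgn were among the lower ones. Periportal markers split too, with 7 of 13 measured higher in FA and 6 lower. Past 2-fold were 1 higher, Pck1, and 1 lower, Cdh1, the epithelial cadherin (1.95 FPKM in FA and 5.42 in AL).

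Of 43 SR proteins and hnRNPs 0 passed 2-fold, with a median log2 ratio of -0.02. The cold-inducible RNA-binding protein genes Rbm3 (17.0 FPKM in FA and 9.02 in AL) and Cirbp (6.49 FPKM in FA and 3.87 in AL) were both higher in FA by less than 2-fold. Of 16 host transcripts of small nucleolar RNAs, 4 were at least 2-fold higher in FA and 1 lower. Snhg12 had 10.3 FPKM in FA and 3.13 FPKM in AL and Zfas1 had 10.1 FPKM in FA and 4.13 FPKM in AL, both in shared loci, and Gas5, also shared, had 100 FPKM in FA and 75.2 FPKM in AL.

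LncRNA genes at 1 FPKM or more in either group and above 0 in both numbered 662. They include genes that share a locus with a protein-coding gene, such as Gm26608 with Insig1. Of the 662, 45 were at least 2-fold higher in FA (6.80%) and 26 lower (3.93%), against 1.57% and 2.88% of protein-coding genes. Their median log2 ratio was 0.08. The split held in both main classes, with 19 higher and 10 lower of 228 lincRNAs and 25 higher and 14 lower of 419 antisense RNAs. Wide ratios were frequent in other classes too. Of 612 assembled loci without a gene name, 110 were at least 2-fold higher in FA (18.0%) and 119 lower (19.4%). Of 88 snoRNA genes, 18 were higher (20.5%) and 11 lower (12.5%), and of 84 miRNA genes, 13 were higher (15.5%) and 4 lower (4.76%). Of 416 processed pseudogenes, 18 were higher (4.33%) and 20 lower (4.81%). The difference between the classes was not tested.

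**Figure D5:**
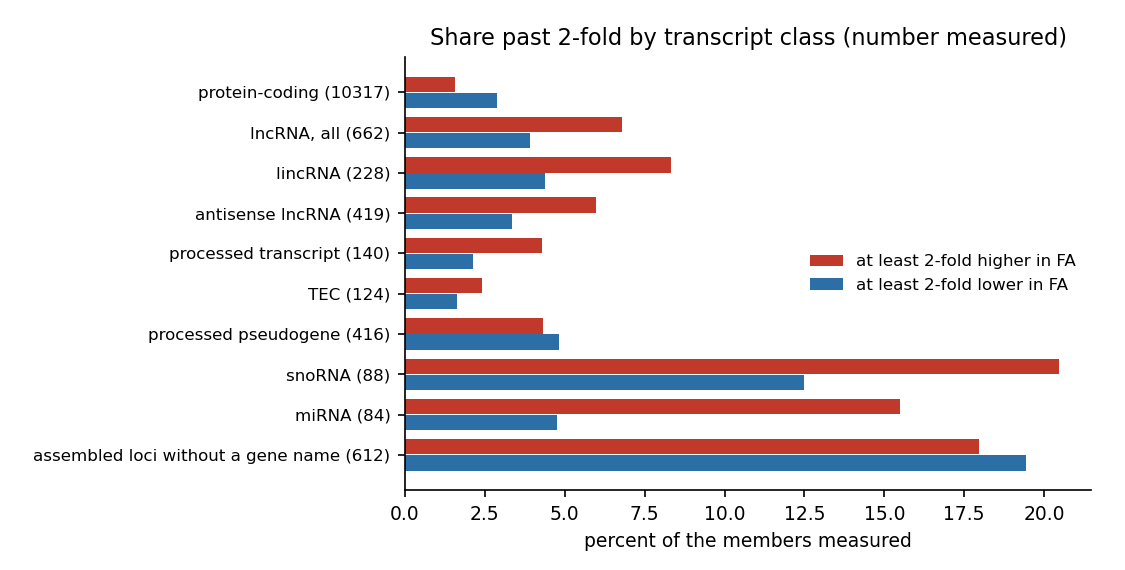
Percent of the members at 1 FPKM or more (horizontal axis) that were at least 2-fold higher (red) or lower (blue) in FA than in AL liver, by transcript class, with the number measured in brackets. LncRNA genes had 6.80% higher in FA and 3.93% lower, protein-coding genes 1.57% and 2.88%.

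Of the 10 lncRNA genes with the widest ratios, 5 shared an interval or a locus with a protein-coding gene whose ratio had the same sign. RP23-98C9.5 (chr8:94170748-94173412) had the highest ratio, with 13.2 FPKM in FA and 0.381 FPKM in AL. It overlaps Mt2 on the other strand, so its 34.6-fold higher level stands beside the 31.4-fold higher level of Mt2 described above. Gm28513, with 1.71 FPKM in FA and 0.257 FPKM in AL, shares its interval with Rgs16, a regulator of G protein signalling, which was under 1 FPKM in both groups (0.521 FPKM in FA and 0.107 in AL). B930025P03Rik (2.54 FPKM in FA and 0.217 in AL, opposite strand) and Gm45044 (2.03 FPKM in FA and 0.0897 in AL) were measured in 1 interval. The locus of Hotairm1, shared with 4 other names, had 2.32 FPKM in FA and 0.148 FPKM in AL. Among the lowest, Gm29016 had 0.126 FPKM in FA and 2.49 FPKM in AL, and Gm6135 had 0.463 FPKM in FA and 2.53 FPKM in AL on the opposite strand. 4930483K19Rik, with 0.258 FPKM in FA and 1.98 FPKM in AL, shares its interval with Lss of sterol synthesis (3.41 FPKM in FA and 22.1 in AL), and Gm14493, with 4.17 FPKM in FA and 24.4 FPKM in AL, with Mid1ip1 of lipid synthesis (0.562 FPKM in FA and 2.75 in AL). The locus of Gm26608, shared with Gm43611 and Insig1, had 23.5 FPKM in FA and 151 FPKM in AL.

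For scale, the lists set aside held 23 of 45 sterol genes at least 2-fold lower in FA and 2 higher, 27 higher and 25 lower of 199 fatty acid and lipid genes, and 4 higher and 0 lower of 24 clock genes.

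Refeeding could be set beside the fast only where a locus of the second table had an FA value within 10% of that in the first, which held for 2845 of the 10317 genes. Both tables share the FA livers, and the RF and FA values that follow are those of the second. Of the 15 genes with the highest ratios, 5 had such a match. Mt2 had 2.00 FPKM in RF and 89.0 FPKM in FA, and Filip1l had 12.1 FPKM in RF and 59.4 FPKM in FA. RP23-234F23.1 had 1.58 FPKM in RF and 8.49 FPKM in FA, and Slc25a34 had 2.13 FPKM in RF and 6.17 FPKM in FA. Gm10801 was the closest to its FA level, with 24.0 FPKM in RF and 31.7 FPKM in FA.

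Of the 15 genes with the lowest ratios, 6 had a match. Nim1k had 33.1 FPKM in RF and 3.36 FPKM in FA, and Serpina7 had 17.9 FPKM in RF and 3.12 FPKM in FA. Camkmt had 3.22 FPKM in RF and 1.05 FPKM in FA, Pstpip2 had 4.96 FPKM in RF and 1.16 FPKM in FA, and Slpi had 1.79 FPKM in RF and 1.13 FPKM in FA. Saa2 was the 1 of the 6 with the lower FPKM in RF, 7.40 FPKM in RF and 8.85 FPKM in FA, where AL liver had 62.4 FPKM. The strands are those given above for each gene.

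Among other matched genes, chosen as examples after their values were seen, Igfbp1 had 0.598 FPKM in RF and 9.70 FPKM in FA, and Trib3 had 0.662 FPKM in RF and 5.61 FPKM in FA. The chaperone genes Sdf2l1 and Creld2 were higher in RF than in FA. Sdf2l1 had 91.7 FPKM in RF and 12.98 FPKM in FA, and Creld2 had 59.9 FPKM in RF and 6.89 FPKM in FA. Cyp2e1 had 2260 FPKM in RF and 2648 FPKM in FA, and Mat1a had 592 FPKM in RF and 770 FPKM in FA.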

How the data were processed

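Liver RNA of FA, AL and RF mice (4 libraries per group) was sequenced after depletion of ribosomal RNA. Per the submitters' notes and the study's methods, reads were trimmed with flexbar 3.4.0, ribosomal reads removed with Bowtie2 2.2.9, the rest aligned with STAR 2.6.0c to GRCm38, and transcripts assembled and quantified with Cufflinks 2.2.1 against Ensembl release 90. The deposited FPKM, 1 value per group and locus, were pooled over the 4 libraries by the authors. For the scaling between libraries, the sources used here name no method. The 2 tables also hold the authors' own comparisons (fold changes, test statistics, p-values and q-values), which were not used.

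Values were compared in Python 3.11.15 with pandas 2.3.3 as log2 of FA over AL, with no pseudocount. A gene took the locus naming it with the highest mean FPKM. It counted as measured at 1 FPKM or more in either group and above 0 in both, and as past 2-fold at a ratio of at least 2 or at most 0.5. The strand and the position of genes came from the annotation deposited with the values, and the strand of loci was inferred from the order of their numbers. Genes overlapping a locus, and biotypes that this annotation lacked, came from GENCODE M21 (GRCm38), and promoters from RefSeq (GRCm38.p6). The ratio script was tested on simulated data. Neither an SD nor a test could be had from pooled values, and depth is unknown.

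Genes were named by a rule: outside the sterol, lipid and clock lists, the 15 highest and 15 lowest ratios at 5 FPKM or more and the 10 largest FPKM differences each way; in each of 81 lists, up to 5 members with the widest ratio and the 2 most abundant; the 5 highest and 5 lowest lncRNA genes; and genes listed at 0 in 1 group. Other genes were named for their role, after their values were seen. The members and lists were chosen with earlier results of these data known. A few genes that the rule names are not reported here.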

Additional observations from a re-analysis of the deposited data

How the results depend on the processing

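No paired analysis was possible because each group has 1 pooled column, and no replicate could be left out for the same reason. The counts of genes higher and lower in FA (162 and 297) depended on the thresholds. At 1.5-fold they were 510 and 836, and at 3-fold 54 and 123. With a minimum of 0.1 FPKM they were 337 and 666, with a minimum of 5 FPKM 97 and 167, and with no minimum 649 and 1028. A pseudocount of 1 FPKM gave 100 and 174. More genes were lower than higher in FA under each of these settings. Of 81 list medians, 12 moved by over 0.1 with the minimum of 0.1 FPKM and 17 with no minimum. With a minimum of 5 FPKM 17 of 77 did, the gluconeogenesis median among them (0.12).

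Rescaling both groups to the same FPKM sum gave 1 gene higher in FA and 10098 lower. This follows from its construction, because 1 locus of 14 bases was listed at 17627500 FPKM in FA, which made the FA sum 24.9 times the AL sum and shifted every log2 ratio by -4.64. All 30 list medians above 0 turned negative under it, among them those over 0.5: metallothioneins (-0.17), glucocorticoid-responsive genes (-4.10) and cold-inducible RNA-binding proteins (-3.81). So did the log2 ratios of every named gene higher in FA but Mt2 and Mup19, among the 2-fold ones Ankhd1 (-3.00), Ctcfl (-2.54), Cyp2e1 (-3.27), Cyp3a25 (-3.07), Dydc2 (-3.30), Filip1l (-0.81), Gm10800 (-2.21), Gm10801 (-1.71), Gm17430 (-2.85), Mat1a (-3.33), Mt1 (-0.68), Mug1 (-3.33), Nr1i3 (-2.92), Pck1 (-2.44), RP23-234F23.1 (-2.52), Slc25a34 (-2.93), Slco1a4 (-2.40) and St3gal5 (-2.61). Rescaling to the same sum over protein-coding loci, chosen after seeing the data, shifted the ratios by 0.03 and reversed none of the 49 named genes. On the annotated strand alone the log2 ratio of Filip1l was -0.000903, and the cause was not tested.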
